A study of Mus musculus with 4 samples.

Results

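The ephrin genes encode the ligands of the Eph receptor tyrosine kinases, and 7 of them were followed here through the PRDM6 binding sites of smooth muscle cells (SMCs): Efna1, Efna2, Efna3, Efna4, Efna5, Efnb2 and Efnb3. They were selected on the number of PRDM6 peaks that the deposited annotation assigned to them, so the peak counts themselves are a description and carry no test. Ephrin genes outside these 7 were not counted. The annotation assigned 48 of its 13977 peaks to the 7 genes. Of the 7 genes, 2 had a peak, Efna5 with 24 and Efnb2 with 24, and the other 5 (Efna1, Efna2, Efna3, Efna4 and Efnb3) had 0 each, so no member fell between 0 and 24.

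The study mapped where PRDM6, a SMC-selective PR domain and zinc finger protein, sits on chromatin. SMCs of the outflow tract were taken from mouse embryos in late gestation. By the study's methods these embryos carried floxed Prdm6 alleles on a C57/Black6 background, and the embryonic day differs between its results and methods. The cells were cultured in DMEM:F12 with fetal bovine serum and infected with a lentivirus that made them overexpress PRDM6 carrying a FLAG tag. The PRDM6 ChIP group held 2 samples, precipitated with an anti-FLAG antibody, and the Input group held 2 samples of chromatin that was not precipitated. The same virus was given to the cells of both groups, so the sites are those of an overexpressed tagged protein, and the comparison was of precipitated with input chromatin rather than of cells with and without PRDM6. The study describes its immunoprecipitations in one place as made from a single sample and in another as independent, so the spread between them may be technical. The list gives them by order alone, so one is called here the first-listed replicate and its partner the second-listed. It held no expression values, so neither the identity of the cells nor the level of any ephrin RNA was measured here.

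Ephrins are bound to the cell surface and meet Eph receptors on the neighbouring cell. Those of class A are held by a lipid anchor, and those of class B cross the membrane and have a cytoplasmic tail that binds PDZ and SH2 adaptor proteins, so that signals run into both cells. The pathway guides axons and neural crest cells, sorts cells at tissue boundaries and shapes vessels. Efnb2 marks arterial endothelium and is needed in the mural cells of small vessels, and Efna5 is best known as a guidance cue of the developing retina and brain.

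Efna5 (ENSMUSG00000048915) lies at chr17:62604184-62881317 and Efnb2 (ENSMUSG00000001300) at chr8:8617434-8661242, both on the - strand of the mm10 build, over 277134 and 43809 bp. Among 21924 protein-coding genes, 19.7% had an assigned peak and 0.0228%, which is 5 genes, had 24 or more. The share of the 7 ephrin genes was 28.6%, close to that of all genes, while the 2 with peaks stood among those 5.

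The sequences at the strongest sites of both genes are given first, followed by 6 of the 11 that held an AP-1 or TEAD match, chosen to show both motifs at both genes, each covering 201 bases around the summit of a peak. Peaks are numbered within a gene from the highest to the lowest −log10 p-value. Capitals mark a match to AP-1 (TGACTCA or TGAGTCA, the site of Fos and Jun dimers) or TEAD (GGAATG or its reverse complement CATTCC, the site of the transcription factors of the Hippo pathway). Efna5 peak 1 and Efnb2 peak 1 had neither.
Efna5 peak 1 (chr17:62505120-62505320, + strand): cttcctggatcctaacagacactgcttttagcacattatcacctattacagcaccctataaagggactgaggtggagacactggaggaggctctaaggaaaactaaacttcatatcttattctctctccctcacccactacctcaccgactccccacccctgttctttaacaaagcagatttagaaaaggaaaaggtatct
Efnb2 peak 1 (chr8:7732723-7732923, + strand): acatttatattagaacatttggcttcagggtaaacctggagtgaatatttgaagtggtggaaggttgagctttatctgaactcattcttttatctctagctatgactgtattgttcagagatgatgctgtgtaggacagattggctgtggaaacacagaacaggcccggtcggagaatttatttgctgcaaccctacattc
Efna5 peak 2 (chr17:62054792-62054992, + strand): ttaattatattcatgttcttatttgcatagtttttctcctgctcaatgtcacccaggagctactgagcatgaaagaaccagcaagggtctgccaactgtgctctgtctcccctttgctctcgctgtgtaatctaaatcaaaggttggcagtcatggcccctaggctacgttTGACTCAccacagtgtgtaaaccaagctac
Efna5 peak 3 (chr17:62783727-62783927, + strand): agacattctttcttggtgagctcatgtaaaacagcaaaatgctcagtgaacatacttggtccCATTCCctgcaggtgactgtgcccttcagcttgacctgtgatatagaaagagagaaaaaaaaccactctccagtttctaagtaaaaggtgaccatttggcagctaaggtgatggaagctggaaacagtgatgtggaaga
Efna5 peak 11 (chr17:61665637-61665837, + strand): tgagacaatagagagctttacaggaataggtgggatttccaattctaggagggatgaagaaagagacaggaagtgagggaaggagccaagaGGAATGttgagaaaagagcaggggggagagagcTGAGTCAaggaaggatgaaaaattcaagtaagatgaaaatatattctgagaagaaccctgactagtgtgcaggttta
Efnb2 peak 14 (chr8:8274848-8275048, + strand): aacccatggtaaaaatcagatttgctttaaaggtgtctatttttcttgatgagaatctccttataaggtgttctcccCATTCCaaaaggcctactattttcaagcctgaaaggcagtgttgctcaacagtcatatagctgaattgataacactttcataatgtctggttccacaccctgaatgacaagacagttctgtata
Efnb2 peak 17 (chr8:8454006-8454206, + strand): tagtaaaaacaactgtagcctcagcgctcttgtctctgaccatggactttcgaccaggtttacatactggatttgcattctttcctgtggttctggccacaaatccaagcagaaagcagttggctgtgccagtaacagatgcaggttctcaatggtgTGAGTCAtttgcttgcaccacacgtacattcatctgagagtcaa
Efnb2 peak 23 (chr8:8644305-8644505, + strand): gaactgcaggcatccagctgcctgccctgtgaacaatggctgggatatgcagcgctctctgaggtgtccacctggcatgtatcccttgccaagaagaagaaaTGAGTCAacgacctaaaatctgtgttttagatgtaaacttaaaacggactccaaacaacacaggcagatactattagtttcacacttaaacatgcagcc

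**Figure D1:**
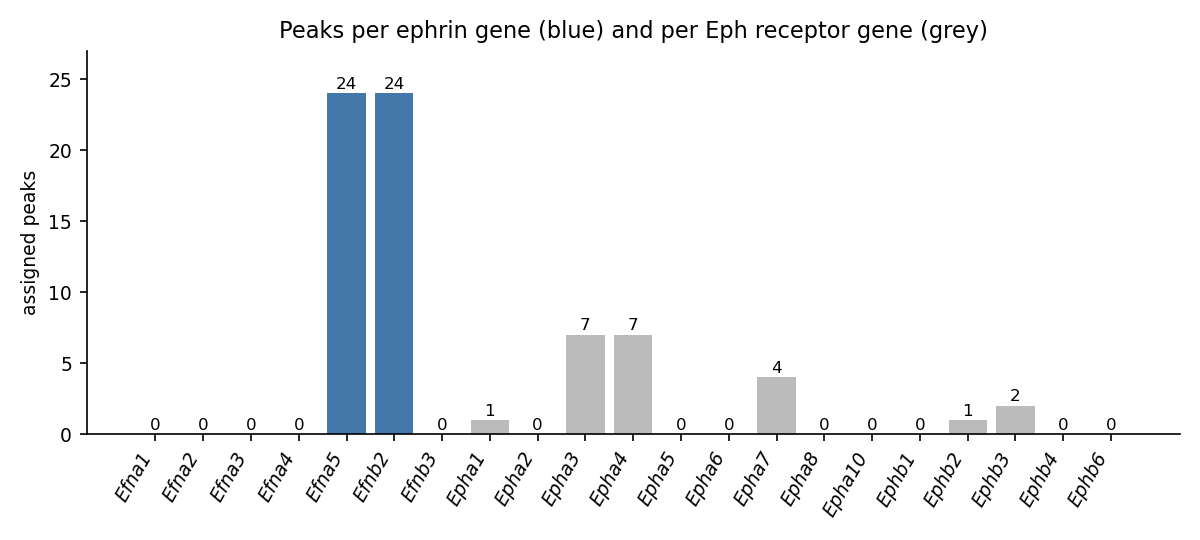
Number of assigned PRDM6 peaks (y axis) for each of the 7 ephrin genes followed, in blue, and the 14 Eph receptor genes in grey. Efna5 and Efnb2 stand at 24 each, the other 5 followed at 0, and no receptor gene above 7.

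Neither gene carried its peaks mainly on its own body. Positions were measured from the outermost transcription start site (TSS) of each gene in GENCODE, with positive values downstream. Of the 24 Efna5 peaks, 8 overlapped the gene, 15 lay past its 3′ end and the remaining one lay 1.91 kb upstream of the TSS. Of the 24 Efnb2 peaks, 3 overlapped the gene, 20 lay past its 3′ end and the remaining one lay 0.114 kb upstream. The Efna5 peaks spanned 1.68 Mb and reached 1677 kb past the TSS, and those of Efnb2 spanned 1.75 Mb and reached 1753 kb.

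Most peaks of both genes were far from the TSS to which they were assigned. Over 100 kb from it lay 20 peaks of each gene, 40 of 48 in all (83.3%, 95% Wilson interval 70.4% to 91.3%), beside 19.3% of all 13977 peaks and 37.9% of the 2290 other peaks of genes with 10 or more. Over 100 kb from the gene body lay 12 peaks of Efna5 and 20 of Efnb2. The intervals cover counting error over peaks alone, and peaks of one gene are not replicates. The median distance from the authors' TSS was 418 kb for the ephrin peaks and 22.7 kb for all peaks. Peaks over 1 Mb from a TSS made up 0.293% of the list, 41 in number, of which 9 were assigned to Slc10a2, the neighbour of Efnb2, 7 to Efna5, 6 to Map3k7 and 4 to Efnb2. Peaks were assigned to the nearest gene, so a gene with more space around it can receive more and farther peaks, and the part of that space in these counts was not tested.

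Both genes have that space on their 3′ side. The next protein-coding TSS downstream of Efna5 is that of Nudt12, 3867945 bp away, and the next upstream is that of Fbxl17 at 618700 bp. For Efnb2 these are Slc10a2 at 3555891 bp and Arglu1 at 29279 bp. The stretch in which Efna5 was the nearest protein-coding gene measured 2.24 Mb and held 26 peaks, or 11.6 per Mb, where chromosome 17 as a whole held 4.93 per Mb. That of Efnb2 measured 1.79 Mb and held 24 peaks, or 13.4 per Mb, where chromosome 8 held 4.44 per Mb. The density of peaks at both genes was thus over that of their chromosome, but since the genes were chosen for many peaks, it is given without a test.

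The surroundings of the genes differed on the upstream side. Counted by the midpoint of each peak, there were 22 peaks within 2 Mb upstream of Efna5, as many as downstream. Of these 22, 2 were assigned to Efna5, one of them peak 18, which covers the TSS but has its midpoint upstream, and most others to Fbxl17, with 9, and Fer, with 6. Within 2 Mb upstream of Efnb2 there were 4 peaks, against 26 downstream, of which 23 were its own and 3 were assigned to Slc10a2. Around Efnb2 the peaks were bunched, with 9 between 250 and 500 kb past the TSS and 0 between 1000 and 1500 kb. The largest stretch without one between neighbouring Efnb2 peaks was 670349 bp, and that between Efna5 peaks 262731 bp.

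**Figure D2:**
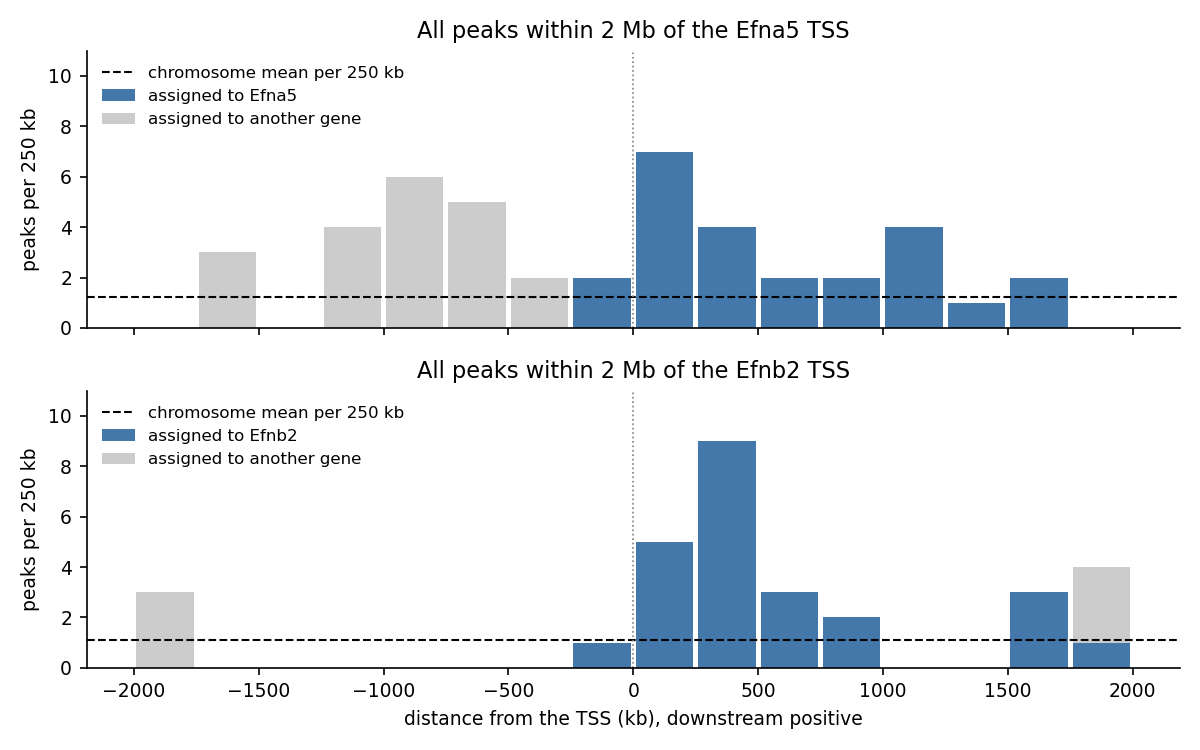
All PRDM6 peaks within 2 Mb of the Efna5 and Efnb2 TSS in bins of 250 kb (x axis in kb, downstream positive, y axis peaks per bin), with the gene's own peaks in blue, those assigned to other genes in grey and the mean of the chromosome as a dashed line. Efna5 has 22 peaks on each side, whereas Efnb2 has 26 downstream and 4 upstream.

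The strongest Efna5 site, peak 1 at chr17:62504675-62505559, lay 376 kb past the TSS in intergenic sequence. Its −log10 p-value, the strength MACS2 gave against input, was 9.28 in the first-listed and 13.97 in the second-listed replicate. Peak 2 at chr17:62054310-62055024, with an AP-1 match, was 826 kb past the TSS and had values of 9.37 and 8.25. These correspond to peak heights of 17 and 15 fragments. Peak 3 at chr17:62783417-62784295 (8.52 and 7.56), with a TEAD match, and peak 4 at chr17:62652332-62652861 (6.92 and 7.92) were in the gene, 97.0 and 228 kb past the TSS. Peak 5 at chr17:61324845-61326142 (9.37 and 6.61) was 1555 kb past it. Peak 9 at chr17:61203552-61204333, the farthest of all at 1677 kb, had 5.42 and 9.98, or 12 and 17 fragments. Peaks 2, 3 and 5 were higher in the first-listed replicate, and peaks 1, 4 and 9 in the second-listed.

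Every intronic peak of Efna5 was in intron 1 of this 5-exon gene. There were 6 of these by the authors' classes, from 97.0 to 228 kb past the TSS, with −log10 p-values of 4.93 to 10.2 in the first-listed and 3.71 to 7.92 in the second-listed replicate. Peak 23 at chr17:62687341-62688041 had the widest disagreement among them, with 18 fragments in the first-listed and 9 in the second-listed replicate.

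The strongest of the 48 sites was Efnb2 peak 1 at chr8:7732052-7733908, 1857 bp wide and 927 kb past the TSS. It reached 11.1 and 10.9 in the replicates, or 19 and 18 fragments, and stood above 94.96% of all peaks in the list. Peak 2 at chr8:8254654-8255359, 406 kb past the TSS, had 9.37 and 17.5. Peak 3 at chr8:8177409-8177732 (7.63 and 7.76) and peak 4 at chr8:8185970-8186815 (10.3 and 7.42) lay 484 and 474 kb past it. Peak 19 at chr8:6907673-6908063, the farthest at 1753 kb, had 4.71 and 6.20 and carried a TEAD match. The 5 highest peaks of Efnb2 all had at least 7.17 in both replicates, and 8 of the 10 highest peaks of the pair of genes were over 100 kb away.

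The 10 Efnb2 peaks that the authors classed as intronic were not in Efnb2. All were in Gm31135, a lincRNA gene at chr8:8044577-8484730 on the same strand, and these were all the peaks that Gm31135 overlapped. Of the 10, 9 were in its intron 2 and peak 17, with AP-1, in its intron 1. Efnb2 peak 23 at chr8:8644157-8644696, classed as an exon, was in an exon of Gm45073, a transcript still to be experimentally checked, and at the same time in intron 1 of Efnb2. It had 3.21, near the lowest value in the list, and 6.61, the median of the second-listed replicate over all peaks, and its AP-1 match began 2 bases from the summit. For 21 of the 24 Efnb2 peaks the annotation counted the distance from an internal TSS, 21879 bp inside the outermost one, which changed no peak's side of the limit of 100 kb.

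**Figure D3:**
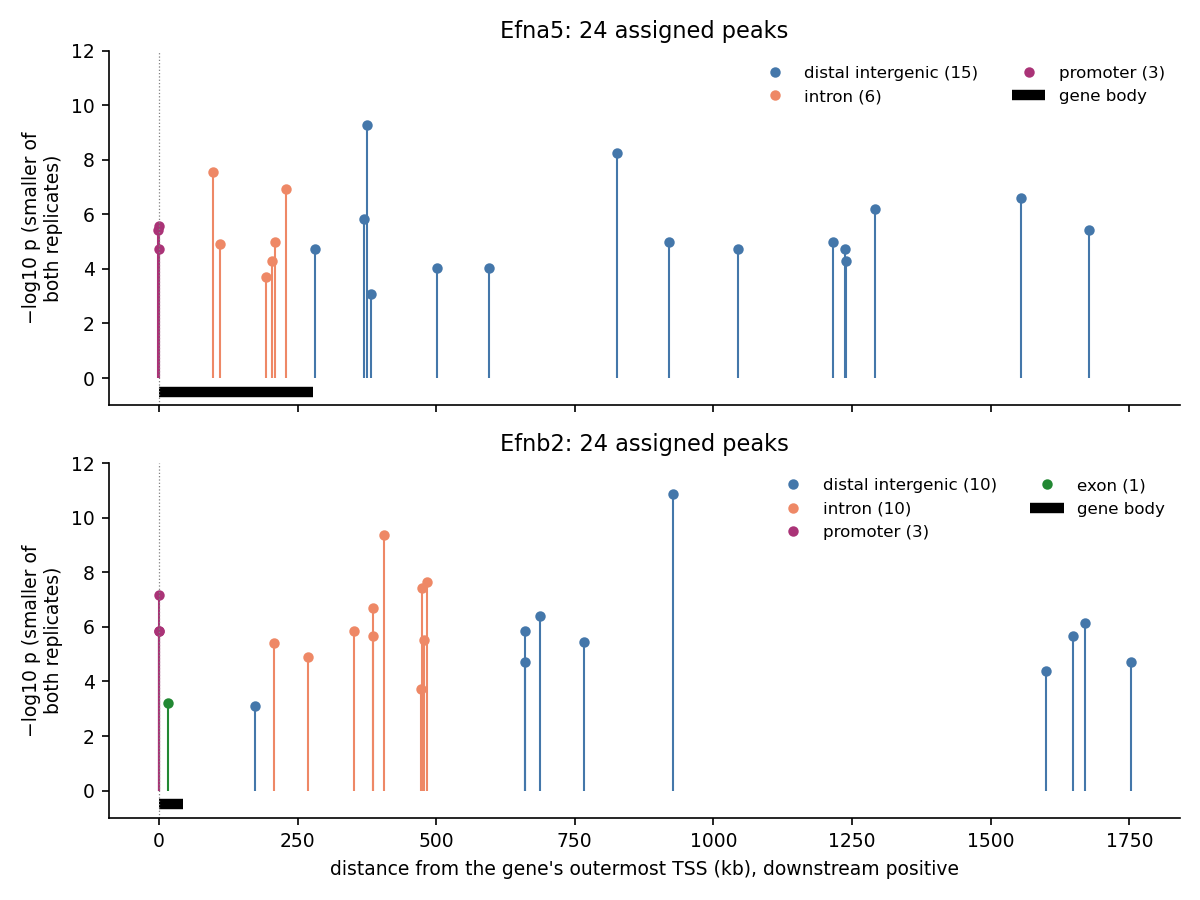
The 24 peaks of Efna5 and of Efnb2 by their distance from the outermost TSS (x axis, kb, downstream positive) and the smaller −log10 p-value of both replicates (y axis), coloured by the authors' class, with the gene body as a black bar. Peaks run to 1677 and 1753 kb past the TSS, and the highest of Efnb2 (10.9, at 927 kb) lies far outside its gene.

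Both genes also had 3 peaks of the promoter class, of which 1 each covered the TSS. Peak 18 of Efna5 at chr17:62880971-62883084 covered the TSS and exon 1 and was the widest of the 48 at 2114 bp. It was also the least even between replicates at a promoter, with 4.71 and 11 fragments in the first-listed against 16.7 and 24 fragments in the second-listed replicate, and their summits were 1315 bp apart. Peak 8 at chr17:62879598-62880439 (5.56 and 6.39) was in intron 1, 0.878 kb past the TSS. Peak 10 at chr17:62883224-62884131 (5.42 and 7.42) was 1.91 kb upstream and had a TEAD match.

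At Efnb2, peak 5 at chr8:8660698-8661267 covered the TSS and part of exon 1 and had nearly equal values of 7.17 and 7.42. Peak 9 at chr8:8659466-8660422 (5.85 and 6.19) was in intron 1, 0.820 kb past the TSS. Peak 12 at chr8:8661356-8662007 (7.71 and 5.84, or 15 and 12 fragments) was 0.114 kb upstream, and its far end ran into the divergent lincRNA gene 4921522P10Rik. The second-listed replicate was the higher in 5 of the 6 promoter peaks, peak 12 being the exception. It was the higher in 1582 of all 2976 promoter peaks of the list and in 24 of the 48 ephrin peaks.

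The promoter peaks ranged widely in base composition. In the 201-base windows the 3 of Efna5 had a median of 55.2% GC, with 79.6% at peak 18, 55.2% at peak 8 and 52.7% at peak 10, and the 3 of Efnb2 69.2%. Together they had a median of 66.4% GC, against 40.8% in the other 42 ephrin peaks and 48.8% at all 2976 promoter peaks of the list. The 250 bases before the TSS, read from the RefSeq table of GRCm38.p6 promoters, are shown for both genes on their own strand with each CpG in capitals.
Efna5 promoter (chr17:62881318-62881567, - strand): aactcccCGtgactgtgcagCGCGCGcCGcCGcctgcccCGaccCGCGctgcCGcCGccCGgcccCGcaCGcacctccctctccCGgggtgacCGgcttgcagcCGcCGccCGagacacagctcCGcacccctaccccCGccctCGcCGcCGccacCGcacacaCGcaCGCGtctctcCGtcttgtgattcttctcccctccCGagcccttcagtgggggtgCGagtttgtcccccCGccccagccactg
Efnb2 promoter (chr8:8661243-8661492, - strand): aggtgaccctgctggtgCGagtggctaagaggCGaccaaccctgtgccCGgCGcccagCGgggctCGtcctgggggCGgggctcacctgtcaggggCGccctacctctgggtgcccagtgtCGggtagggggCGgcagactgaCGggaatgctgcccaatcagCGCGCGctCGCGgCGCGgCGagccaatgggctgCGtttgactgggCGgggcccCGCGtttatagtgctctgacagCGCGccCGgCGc
Efna5 had 74.8% GC with 32 CpGs, and Efnb2 72% with 27 and a TEAD match, which 12.6% of the 32851 promoters had. The AP-1 letters were in neither, and in 4.46% of all promoters. The median promoter had 52.4% GC and 6 CpGs. Of the members without a peak, Efna2 had 73.6% with 25 CpGs, the paired entries of Efna1 had 64.8% and 64.4% and those of Efna3 63.6% and 70.4%, while Efna4, near the median promoter, had 54.4% with 7 CpGs. The table matched 6 of the 7 members and Efnb3 was not matched.

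By the authors' classes, 25 of the 48 ephrin peaks (52.1%) were distal intergenic, where 37.2% of all peaks were. Intronic peaks numbered 16 (33.3%), beside 35.9% of all. Promoter peaks numbered 6 (12.5%), beside 21.3%, and the remaining one was the exonic peak described above. Efna5 had 15 intergenic and 6 intronic peaks, and Efnb2 10 of each.

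The family's peaks were of ordinary strength for this list and none was highly reproducible. Taking the weaker replicate at each site, the median −log10 p-value was 5.44 over the 48 peaks (5.53 over all peaks), 4.98 for Efna5, with a range of 3.08 to 9.28, and 5.75 for Efnb2, with a range of 3.09 to 10.9. In the first-listed replicate the median was 5.62 for Efna5, 7.40 for Efnb2 and 6.92 over all peaks. In the second-listed these were 6.30, 6.19 and 6.61. Which of the genes had the stronger peaks thus turned with the replicate, by their medians. A peak height could be read back in 29 and 27 of the 48 peaks, and ran from 10 to 28 fragments in the first-listed and from 8 to 24 in the second-listed replicate, with medians of 14 and 13. All of these were small numbers of fragments, as in the whole list, where the medians were 14 and 13.

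Reproducibility was scored by the authors with the irreproducible discovery rate (IDR), the estimated share of irreproducible peaks among those ranked at least as high. An IDR of at most 0.05 was reached by 0 of 48 ephrin peaks and by 3.33% of all peaks. Were the peaks independent, 0 of 48 would allow a share of up to 6.25%. The lowest IDR was 0.115, at Efnb2 peak 1, and for Efna5 0.145, at its peak 1. The lowest score the list gives was held by 19 ephrin peaks (39.6%, interval 27.02% to 53.69%), close to the 41.4% of all peaks. Of these 19, 12 were assigned to Efna5 (50% of its peaks) and 7 to Efnb2 (29.2%).

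The values of the replicates were also set side by side. The Spearman rank correlation between their −log10 p-values was -0.02 over the 48 ephrin peaks and 0.26 over all 13977, a description over peaks from the same pair of libraries. The values differed by a median of 2.34 at the ephrin peaks and 1.999 at all peaks, and by more than 5 at 8 ephrin peaks (16.7%, all peaks 14.5%). The widest gap was at Efna5 peak 6, chr17:61588874-61589888, with an AP-1 match, where the first-listed replicate had 19.9, or 28 fragments, and the second-listed 6.20. Among the 18 peaks with a height in both replicates, each replicate was the taller in 8 and the heights were equal in 2. The replicates' summits were a median of 156.5 bp apart, against 121 bp over all peaks. The peaks were 728.5 bp wide in the median, against 600 bp, and 2 of 48 windows (4.17%) were mostly repeats, against 7.81%.

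**Figure D4:**
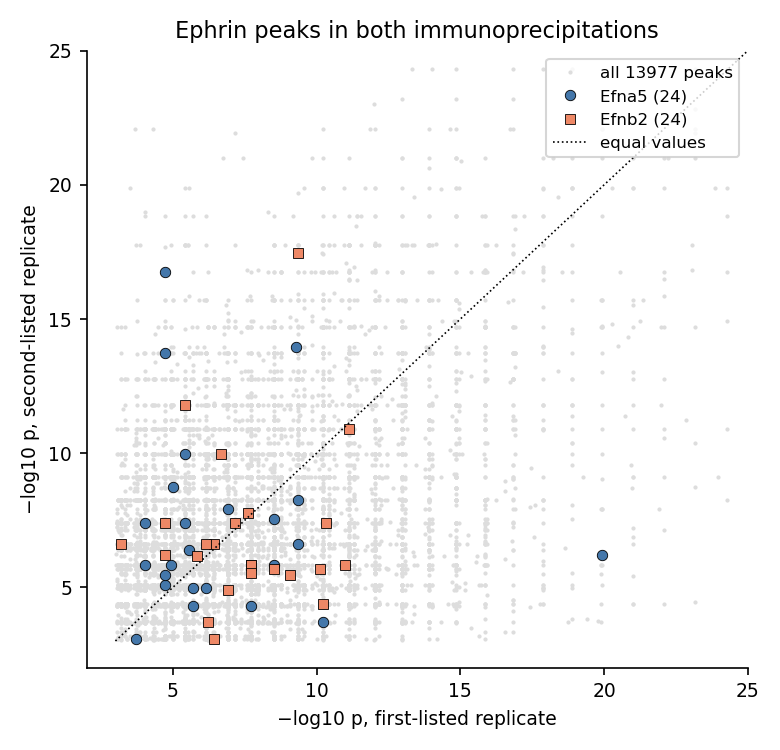
The −log10 p-value of each Efna5 (circles) and Efnb2 (squares) peak in the first-listed (x axis) and second-listed (y axis) replicate, over all peaks in grey, with axes ending at 25 and a dotted line at equal values. The ephrin points lie on both sides of the line, 24 on each.

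AP-1 letters stood within 100 bp of the summit at 7 ephrin peaks (14.6%, interval 7.25% to 27.2%), close to 14.3% of all peaks. In flanks of 100 bases each, centred 1000 bp before and after the summit, they stood at 0 of the 48 peaks and 3.83% of all. A match in either flank counted. Efna5 had 5 of the 7, peaks 2, 6, 11, 21 and 23, and Efnb2 had peaks 17 and 23. TEAD letters stood at 5 ephrin peaks (10.4%, 4.53% to 22.2%), against 19% of all peaks. In the distant flanks they stood at 7 peaks (14.6%), against 10.9% of all. With the summit of the second-listed replicate alone the TEAD share was 16.7%, against 18.3% of all peaks. The intervals cover counting error over peaks alone and treat them as independent, which peaks of one gene are not. Both include the share of all peaks, but they are no test. Efna5 peak 11, shown above, was the one ephrin window with both, its TEAD match starting 9 bases before and its AP-1 match 24 bases after the summit, without overlap.

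The 7 peaks with AP-1 had a median −log10 p-value of 5.00 and the 41 without it 5.53. None of the 5 strongest Efnb2 peaks had AP-1 or TEAD, and of the 5 strongest of Efna5 peak 2 had AP-1 and peak 3 had TEAD. The CArG box, the site of serum response factor, stood at 2 ephrin peaks (4.17%), Efna5 peak 1 and Efnb2 peak 14, and at 1.41% of all. The letters TTTCAT or TTTCCT stood at 20 ephrin peaks (41.7%), 43.1% of all peaks, and in the distant flanks of 17 ephrin peaks (35.4%). All motifs were searched on both strands. A match describes the letters in the window and not a bound factor.

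The other 5 of the 7 ephrin genes are short and lie among close neighbours. Efna1, Efna3 and Efna4 follow each other on chromosome 3, at chr3:89271733-89281142, chr3:89313899-89322965 and chr3:89333390-89338028, and encode ligands of EphA receptors. The peak nearest to all 3 was the same, at chr3:89123377-89123656. It was assigned to Pklr, the pyruvate kinase of liver and red cells, had 5.36 and 4.39 in the replicates and lay 157486, 199309 and 214372 bp from their TSSs. For Efna2 at chr10:80179482-80190010 the nearest was 107820 bp away and assigned to Sbno2. That peak had 14.9 and 15.7 and was stronger in its weaker replicate than any ephrin peak. For Efnb3 at chr11:69554092-69560205, a ligand of class B, it was 122723 bp away, assigned to Senp3, and had 10.2 and 10.3. The stretch in which each of the 5 was the nearest protein-coding gene measured 0.0135 to 0.0284 Mb, with 0 peaks in each.

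Assignment to the nearest protein-coding TSS of GENCODE gave the same split, with 26 peaks for Efna5, 24 for Efnb2 and 0 for each of the other 5. All 48 peaks kept their gene, and the added Efna5 peaks were 2 that the authors had assigned to the noncoding 4930405O22Rik.

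Among 40 other genes with 15 or more peaks, those whose peaks were placed most like those of Efna5, by the Kolmogorov-Smirnov distance between signed distances to the TSS, were 1700016G22Rik (0.375, 23 peaks), Trps1 (0.375, 15 peaks) and Pvt1 (0.39, 15 peaks). For Efnb2 they were Trps1 (0.30), 1700016G22Rik (0.375) and Pvt1 (0.43). Efna5 and Efnb2 were closer to each other, at 0.17. Peaks over 100 kb away numbered 19 of 23 at 1700016G22Rik, 12 of 15 at Trps1, a GATA-type zinc finger repressor, and 9 of 15 at Pvt1, a long noncoding RNA. An IDR of at most 0.05 was reached by 2 peaks of Trps1 and 1 of Pvt1.

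Of the 14 Eph receptor genes, 6 (42.9%) had a peak, beside the 19.7% of all protein-coding genes. The list was chosen with earlier results of these data known, and the difference was not tested. The 6 genes held 22 peaks, of which 12 (54.5%) were over 100 kb from the TSS, beside 19.3% of all peaks. An IDR of at most 0.05 was reached by 0 of the 22, beside 3.33% of all peaks. Epha3 had 7 peaks, the highest at 10.2 and 9.10, 5 of them over 100 kb away. Epha4, which binds ligands of both classes, had 7, the highest at 10.6 and 8.25 and the nearest 69 bp from the TSS. Epha7 had 4, the highest at 10.2 and 9.10 and another over the TSS. Ephb2, a receptor of Efnb2, had 1 at 10.2 and 12.8, and Ephb3 had 2, the higher at 5.42 and 6.61. Epha1 had 1, 676 bp upstream of its TSS, with 8.52 and 5.84. The genes without a peak were Epha2, Epha5, Epha6, Epha8, Epha10, Ephb1, Ephb6 and Ephb4, the receptor that marks veins opposite to arterial Efnb2.

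Of 20 genes for proteins that act with Eph receptors and ephrins, 15 (75%) had a peak, beside 19.7% of all protein-coding genes, 49 peaks in all. These genes too were chosen with earlier results known, and ran from 2349 bp (Pard6a) to 633432 bp (Grip1) in length. The difference from all genes and the part of gene length in it were not tested. Among the 49 peaks, 5 (10.2%) were over 100 kb away, beside 19.3% of all peaks, 54.5% of the receptor peaks and 83.3% of the ephrin peaks. The highest was at Rasa1, the Ras GTPase activator recruited by EphB receptors, with 15.8 and 16.8 at 69676 bp upstream, and this was the 1 peak of 49 (2.04%, all peaks 3.33%) with an IDR of at most 0.05. Rasa1 and Nck2, an SH2 adaptor, had 7 peaks each, and Vav3, a guanine nucleotide exchange factor, had 6. Adam10, the protease that sheds ephrins of class A, had 5, the highest with 8.52 and 15.7 at 2310 bp past its TSS. Pak1 and Itsn1 had 4 each, Fyn 3, and Nck1, Ngef, Kalrn, Ptpn13 and Abl1 2 each. Sdcbp and Grip1, PDZ proteins that bind the tail of class B ephrins, had 1 each, as did Crk. Vav2, Tiam1, Pard6a, Src and Rhoa had 0.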

How the data were processed

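The data were ChIP-seq libraries in 4 samples, 2 in the PRDM6 ChIP and 2 in the Input group, grouped by their titles. The authors aligned reads to mm10 with BWA, ran MACS2 separately on both PRDM6 ChIP samples, with the matching input as control, and paired the resulting peaks by the IDR procedure (versions are not given in the sources used here). The deposited list of 13977 peaks gives a scaled IDR score, the −log10 p-value of MACS2 for each replicate, of which the smaller is that of the matched peak, and the −log10 IDR. The deposited annotation gives each peak's gene, class and distance in bp. A score of 540 stands for a global IDR of 0.05, and 48 was the lowest. Total reads per sample were not given.

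The members, lists and motifs were chosen with earlier results of these data known. No test was run, since the members were selected on their peaks and peaks are not replicates. Named were all members and Eph receptors, the signalling partners with a peak, and of the peaks of Efna5 and Efnb2 the 5 highest, the nearest to the TSS and the farthest from it on each side. Other peaks, and the 5 partners without a peak, were named after their values were seen. The named neighbours in position are the 3 genes with the smallest Kolmogorov-Smirnov distance.

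Windows of 201 bp around summits were read from GRCm38 (the genome of mm10), and gene models were those of GENCODE M21. MACS2 takes p-values from a Poisson distribution, so values within 0.0002 of a tail at the background mean (2.61 and 2.39 fragments) gave the height of a peak. The reading was checked on made-up values of known height. Promoter means within 3 kb of a TSS. Python 3.11.15, pandas 2.3.3, NumPy 2.4.6, SciPy 1.17.1, pysam 0.24.0 and matplotlib 3.10.9 were used. Alternatives were other IDR limits, another assignment to genes, limits of distance, each replicate alone and other windows.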

Additional observations from a re-analysis of the deposited data

How the results depend on the processing

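At a global IDR of at most 0.05, which 3.33% of all peaks reached, the number of peaks was 0 for Efna5 and 0 for Efnb2, and 0 also at 0.01. At 0.05 a peak thus remained at 0 of the 7 ephrin genes, 0 of the 14 Eph receptor genes and 1 of the 20 signalling genes, Rasa1. Within 100 kb of the TSS, Efna5 and Efnb2 kept 4 peaks each. With 200 bp on both sides of the summit the share with AP-1 rose to 31.25% (all peaks 26.2%) and that with TEAD to 27.1% (all peaks 32.6%), as longer windows hold more letters. With 50 bp both shares were 8.33% (all peaks 7.61% for AP-1 and 10.4% for TEAD). Assignment to the nearest protein-coding TSS gave 26 and 24 peaks, and counting peaks under 5 kb apart once gave 19 and 18. The share over 50 kb was 85.4% and over 200 kb 75%. By one replicate alone, the median −log10 p-value was 6.20 to 6.55, the share with AP-1 10.4% to 18.75% (all peaks 12.3% to 13.3%) and that with TEAD 12.5% to 16.7% (all peaks 18.3% to 18.5%). No paired analysis was possible because no result comes from a test between groups and the list gives no value of the Input group, so the numbers shared by ChIP and Input samples have nothing to pair. The values of both immunoprecipitations were compared only within peaks. Heights of 8 to 28 fragments limit how well peaks can be ranked, and the total depth is unknown.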
